A study of Mus musculus with 104 samples.

Results

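The 39 Hox genes of the mouse were followed through the bulk RNA-seq libraries of totipotent blastomere-like cells, their parent stem cells, their derivatives and embryoid bodies. The members were every gene whose symbol reads Hox, a cluster letter and a paralog number, which gave 39 of the 24958 genes used: 11 of the Hoxa cluster on chromosome 6, 10 of Hoxb on chromosome 11, 9 of Hoxc on chromosome 15 and 9 of Hoxd on chromosome 2. They were chosen by name and not by any measured value. By paralog number, 12 were called anterior (paralogs 1 to 4), 11 central (5 to 8) and 16 posterior (9 to 13).

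Hox genes encode homeodomain transcription factors that give cells of the trunk their position along the head-to-tail axis. Within a cluster the genes lie in the order in which they are switched on in the gastrulating embryo, the paralogs of group 1 first and in the most anterior tissue, and the paralogs of group 13 last and at the tail. In naive pluripotent cells the clusters are held under Polycomb repression, and retinoic acid, Wnt signals and Cdx factors open them during differentiation. Meis and Pbx proteins bind DNA together with many Hox proteins.

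Most libraries came from wild-type TC1-GFP mouse embryonic stem cells. The 3 libraries of stem cells in S/L medium are called mPSCs (replicate 1 at passage 0, replicate 2 titled as passage 0 of the 2MYCP series, replicate 3 titled PSC-2). Totipotent blastomere-like cells (mTBLCs) were grown in 2MYCP medium and sampled at passages 1, 2 and 4 (early), at passages 6, 8, 14 and 19 (established) and at passages 7 and 8 on gelatin; the labels do not state the surface of the other cultures. Related cultures were 2MYC medium at passages 1 to 6, 2MYP medium at passages 7 and 8, a Ctnnb1 knockout at passage 7 and cells with ICG001 at passage 7. The 2MYP libraries are titled withoutC and were deposited as cultures without CHIR. Otherwise the labels do not expand the media names. Time courses covered S/L medium (20 libraries, 0 to 92 h), SFH medium (23 libraries, 0 to 96 h) and NTF medium (7 libraries, 0 to 96 h), with 1 library at each time. Embryoid bodies in serum medium were labelled as days 3, 8, 10 and 12 from TC1 cells and from mTBLCs, with 1 library for each day and origin. The other libraries were TELC and PreLC cells (passages 0 to 2 each), 1 titled EB-TSC, 2 blastoids, 1 E3.5 blastocyst sample of ICR mice, 4 ICR blastomere lines in 2iLP medium titled 4nM or 2-5nM (passages 4 and 5 of each), and 10 with ZHBTc4 in the title, the name of a line whose Pou5f1 comes from a transgene that doxycycline shuts off, although the cell line field of these 10 reads TC1-GFP. No label says whether replicates were separate cultures. Apart from the mPSCs, libraries tested as a group were of different passages, or of different days or origins of embryoid bodies. The p-values reflect the scatter among such libraries, which holds these differences. Part of the scatter, or all of it within the mPSCs, may be technical.

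Sequencing depth ran from 1.04 to 57.0 M counts (M for mega) with a median of 22.8 M. Fibroblast genes (15 genes led by collagens and the mesenchymal factor Prrx1, none of them a Hox gene) are given beside the results, because embryonic fibroblasts used as feeders carry Hox transcripts of their own. Their summed level ran from 21.6 CPM (counts scaled to a common library total) in the blastocyst to 8210 CPM in the day 12 embryoid bodies from mTBLCs. In bulk RNA fewer cells of a type and less RNA per cell cannot be told apart. The strand setting of the counting is not given in the sources used here, and 9 members share exon bases with another gene on the same strand and 10 with an antisense gene, so their counts may include reads of those neighbours.

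Promoter windows of 4 members are shown because the results turn on them: Hoxb1 and Hoxb4 were above the stem cells in the embryoid bodies of days 10 and 12, Hoxc4 fell in all 3 time courses, and Hoxd13 rose in established mTBLCs. Each window holds 250 bases before and 50 bases after a RefSeq start site (GRCm38.p6, plus strand of the gene, 5′ to 3′), and capitals mark matches to a motif searched on both strands. In the Hoxb1 window (chr11:96365508-96365807) capitals mark TGATNNAT, a short form of the Pbx and Hox composite site. In Hoxb4 (chr11:96318017-96318316) and Hoxc4 (chr15:103034145-103034444) they mark TGACCT, the other strand of the retinoic acid receptor core motif AGGTCA. In Hoxd13 (chr2:74667975-74668274) they mark overlapping matches to TATAAA and its other strand TTTATA. The start site used for Hoxc4 lies inside the gene as annotated in GENCODE M21, from base 103018934 to base 103036852.
Hoxb1: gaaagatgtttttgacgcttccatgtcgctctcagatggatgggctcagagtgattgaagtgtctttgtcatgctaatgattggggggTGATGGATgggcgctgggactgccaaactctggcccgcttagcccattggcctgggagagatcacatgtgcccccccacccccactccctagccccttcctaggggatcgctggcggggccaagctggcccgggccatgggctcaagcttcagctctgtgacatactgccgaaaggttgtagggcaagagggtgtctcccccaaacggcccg
Hoxb4: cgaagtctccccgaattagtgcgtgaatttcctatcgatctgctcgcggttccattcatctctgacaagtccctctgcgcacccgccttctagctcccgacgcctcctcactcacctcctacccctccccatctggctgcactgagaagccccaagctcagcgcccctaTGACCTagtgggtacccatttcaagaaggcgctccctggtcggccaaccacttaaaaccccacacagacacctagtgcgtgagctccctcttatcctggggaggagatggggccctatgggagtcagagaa
Hoxc4: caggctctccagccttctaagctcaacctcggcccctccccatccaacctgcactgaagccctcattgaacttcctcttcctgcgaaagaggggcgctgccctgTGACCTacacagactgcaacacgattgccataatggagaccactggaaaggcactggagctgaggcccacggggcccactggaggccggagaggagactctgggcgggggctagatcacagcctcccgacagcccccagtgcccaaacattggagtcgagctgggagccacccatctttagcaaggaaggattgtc
Hoxd13: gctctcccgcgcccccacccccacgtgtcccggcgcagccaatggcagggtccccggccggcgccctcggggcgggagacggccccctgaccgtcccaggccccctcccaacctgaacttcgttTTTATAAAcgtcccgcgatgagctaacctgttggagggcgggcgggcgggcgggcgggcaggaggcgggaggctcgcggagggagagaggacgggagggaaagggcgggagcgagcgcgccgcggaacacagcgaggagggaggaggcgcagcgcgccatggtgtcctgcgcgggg
RefSeq windows were matched for 22 of the 39 members (24 windows). Median GC content was 57.7% in these windows and 52.7% in all 32851 windows of 27025 genes, and the median number of CpG pairs was 14.5 against 7. The Cdx motif TTTATG was found in 20.8% of the Hox windows and in 11.9% of all windows. TGATNNAT was in 16.7% of the Hox windows against 8.85% of all, TATAAA in 16.7% against 13.6%, and AGGTCA in 29.2% against 16.3%. These matches are descriptions of the letters and say nothing on whether a factor binds there.

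Hox levels were low in nearly all libraries. The 39 members together took between 19.4 CPM (NTF medium, 72 h) and 524 CPM (ZHBTc4 in 2MYCP with doxycycline, passage 4), with a median of 72.5 CPM over the 96 libraries outside the embryoid bodies. Between 5 and 34 members reached 1 CPM in a library. Per kilobase of exon, the leading members of 3 clusters in the mPSC libraries were Hoxb9 with a mean level of 3.94 CPM/kb, Hoxc6 at 1.45 and Hoxd13 at 1.22 CPM/kb. The summed Hox level of the mPSC libraries was uneven, at 48.8, 115 and 28.7 CPM in replicates 1 to 3, and replicate 2 was the highest of the 3 for most members.

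**Figure D1:**
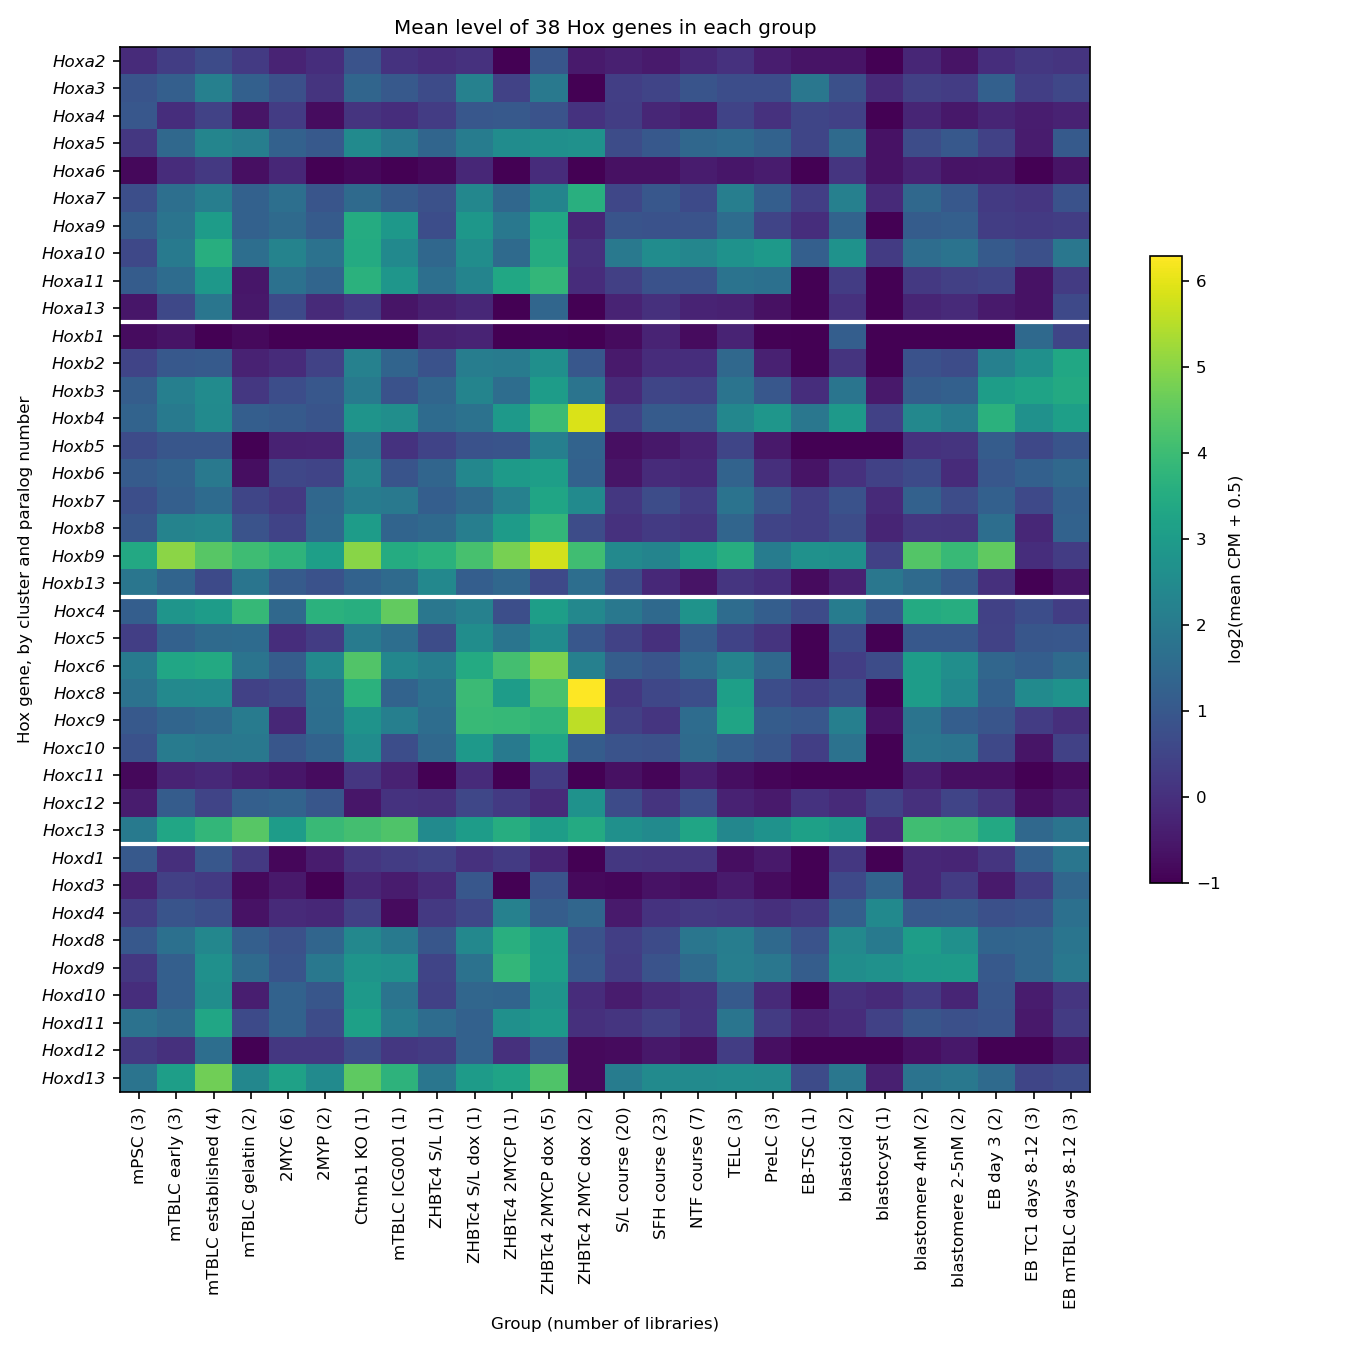
Mean level of 38 Hox genes (vertical axis, by cluster and paralog number) in each group of libraries (horizontal axis, with the number of libraries), coloured by log2(mean CPM + 0.5). Hoxb9, Hoxc13 and Hoxd13 are among the brightest members in the cultures in 2MYCP medium, while Hoxb2 and Hoxb3 are brightest in the embryoid bodies of days 8 to 12 from mTBLCs; the brightest squares, Hoxc8 and Hoxb4 in ZHBTc4 with 2MYC and doxycycline, rest mainly on a library of 1.04 M counts.

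The embryoid body libraries did not all match their labels, which bears on every embryoid body result. The library labelled day 3 from TC1 cells was closest to mPSC replicate 1 (r = 0.991 across 10697 genes), with 1608 CPM of the pluripotency factor Pou5f1 against 1589 CPM and 139 CPM of Col1a1 in both, although the counts of this pair differed beyond sampling noise. The one labelled day 3 from mTBLCs had 18.9 CPM of Pou5f1, 2854 CPM of Col1a1 and 146 CPM of the neuronal tubulin Tubb3. The library labelled day 8 from mTBLCs was closest to the SFH library of 64 h (r = 0.970), with 944 CPM of Pou5f1 and 34.8 CPM of the 2-cell-stage gene Zscan4c. The day 8 library from TC1 cells held 192 CPM of the primitive streak gene T and 142 CPM of the epiblast gene Fgf5. Each of the 4 libraries of days 10 and 12 had another of these 4 as its closest library (r from 0.972 to 0.981), and they carried heart, blood and endoderm genes: Myh6 (atrial myosin) was 50.3 and 134 CPM from TC1 cells and 14.3 and 61.0 CPM from mTBLCs, the embryonic globin Hbb-bh1 was 20.0 and 46.1 CPM against 55.8 and 79.8 CPM, and Afp of visceral endoderm was 101 and 635 CPM against 471 and 1386 CPM.

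In these later embryoid bodies the anterior members of the Hoxb cluster stood above the stem cells, and the posterior member Hoxb9 stood below them. Levels below are given for days 3, 8, 10 and 12 in that order. Hoxb2, a hindbrain gene, was 0.677, 2.10, 5.51 and 9.74 CPM from TC1 cells and 7.38, 0, 14.1 and 14.8 CPM from mTBLCs, against 0.824, 1.64 and 0.300 CPM in mPSCs. Hoxb3, also of hindbrain and neck, was 2.03, 2.98, 9.0 and 14.9 CPM from TC1 cells and 13.6, 1.11, 15.5 and 14.1 CPM from mTBLCs, against 1.24, 2.10 and 1.80 CPM in mPSCs. Hoxb4, known also for the growth of blood progenitors, was 1.18, 0.875, 7.05 and 9.80 CPM from TC1 cells and 22.9, 0.590, 12.6 and 11.4 CPM from mTBLCs, against 1.65, 3.42 and 0.899 CPM in mPSCs. All 4 libraries of days 10 and 12 lay above all 3 mPSC libraries for these genes, as they did for 15.6% of all genes. The day 8 library from mTBLCs, in contrast, lay below every mPSC library for each of these Hoxb genes.

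Hoxb9, a thoracic gene, ran the other way. It was 9.98, 0.233, 0.162 and 0.993 CPM from TC1 cells and 34.3, 1.84, 0.253 and 0.115 CPM from mTBLCs, and 7.28, 19.9 and 3.26 CPM in mPSCs. All 6 embryoid bodies of days 8 to 12 were below all mPSC libraries. Hoxb13, the most posterior Hoxb gene, was 1.02 CPM on day 3 from TC1 cells and 0 on the later days, and 0, 0, 0.253 and 0.229 CPM from mTBLCs, against 0.275, 8.48 and 0.674 CPM in mPSCs. Its highest value, in mPSC replicate 2, stood far above the others.

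**Figure D2:**
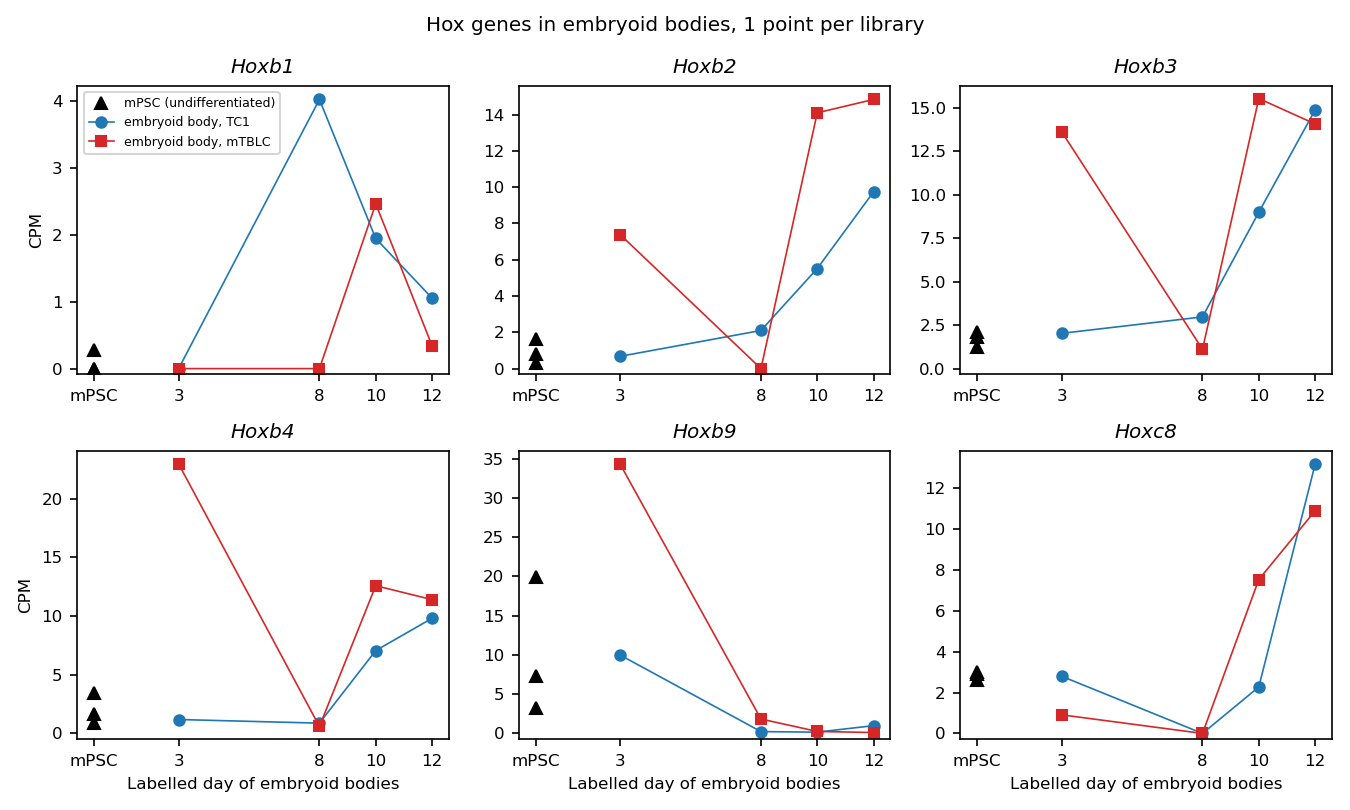
Level in CPM (vertical axis, 1 point per library) of 6 Hox genes against the labelled day of the embryoid bodies (horizontal axis) from TC1 cells (blue circles) and mTBLCs (red squares), with the 3 mPSC libraries as black triangles. Hoxb2, Hoxb3 and Hoxb4 lie above all mPSC points on days 10 and 12, Hoxb9 lies below them from day 8, and the mTBLC library labelled day 3 is high for Hoxb3, Hoxb4 and Hoxb9.

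Across days 8, 10 and 12 (n = 6) against mPSCs (n = 3), 35 of the 39 members could be tested with edgeR's quasi-likelihood test; Hoxa6, Hoxc11, Hoxc12 and Hoxd12 were too low. None rose past an adjusted p of 0.05, where 6.61% of all genes did; 2 members were higher and 3 lower at an unadjusted p under 0.05, as 33.6% of all genes were in either direction, and DESeq2 called 3 members higher and 2045 of 16130 genes. Exactly 2 fell, where 7.84% of all genes did: Hoxb9 by a log2 change of -4.12 (SE 0.893, edgeR adjusted p = 0.0151) and Hoxb13 by -5.28 (SE 1.5, edgeR adjusted p = 0.0371). The libraries labelled day 3 were a group of their own in this fit and so entered its estimate of the spread. Embryoid bodies and mPSCs were deposited as separate sets of counts. The median log2 change of the tested members was 0.13 and that of all genes 0.01. Without mPSC replicate 2 neither of these calls held, and 404 of 15911 genes fell, against 1265 of 16130 with all libraries. Without the day 8 library from mTBLCs 3 of 35 members rose, as did 1629 of 16038 genes.

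Restricting the later embryoid bodies to days 10 and 12 (n = 4) gave 2 members that rose, where 10.2% of all genes did. These were Hoxb2, with a log2 change of 3.46 (SE 0.929, edgeR adjusted p = 0.0244), and Hoxb3, with 2.86 (SE 0.681, edgeR adjusted p = 0.0155). Hoxb9 fell, with a log2 change of -4.82 (SE 0.923, edgeR adjusted p = 0.00691), where 11.5% of all genes fell. Hoxb4, at 2.25 (SE 0.883, edgeR adjusted p = 0.0897), did not pass. Without any test, 5 of the 39 members (Hoxb1, Hoxb2, Hoxb3, Hoxb4 and Hoxd9) were higher in all 4 libraries of days 10 and 12 than in all mPSC libraries. This is a smaller share than the 15.6% of all genes. Another 2 (Hoxb9 and Hoxb13) were lower in all, also a smaller share than the 13.6% of all genes.

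Hoxb1 and Hoxd1 are paralogs of group 1, the earliest Hox genes in the embryo. Hoxb1, which marks the presumptive hindbrain and early trunk, was 0, 4.03, 1.95 and 1.05 CPM from TC1 cells and 0, 0, 2.46 and 0.344 CPM from mTBLCs, against 0.275, 0 and 0 CPM in mPSCs. Over days 8 to 12 it had 155 counts against 2 in mPSCs, a ratio of 46.0 (exact 95% interval 12.5 to 384, which like all such intervals here covers counting error only). Low counts were mostly even numbers, and an interval that takes each count as independent is too narrow where a fragment was counted more than once. Hoxd1 was 1.02, 1.52, 3.57 and 0.496 CPM from TC1 cells and 0.170, 0.787, 4.61 and 4.07 CPM from mTBLCs, against 1.92, 1.82 and 0.899 CPM in mPSCs, so the groups overlapped.

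Per kilobase of exon, Hoxb4 (2.75 CPM/kb), Hoxb3 (2.26), Hoxc8 (1.99), Hoxd1 (1.35), Hoxd9 (1.28) and Hoxc13 (1.07 CPM/kb) had the highest mean levels of their clusters in the 6 embryoid bodies of days 8 to 12, and Hoxa10 was at 0.674 CPM/kb. Hoxc8, a thoracic gene, was 2.79, 0, 2.27 and 13.2 CPM from TC1 cells and 0.909, 0, 7.52 and 10.9 CPM from mTBLCs, against 2.89, 3.01 and 2.62 CPM in mPSCs. It was at 0 in both day 8 libraries and highest on day 12. Hoxd9 was 0.254, 1.28, 1.87 and 3.29 CPM from TC1 cells and 2.84, 0.656, 5.06 and 4.24 CPM from mTBLCs. Summed over positions, the anterior members were at 39.4 to 69.8 CPM on days 10 and 12 and at 8.39 to 27.0 CPM in mPSCs, while the posterior members were at 10.6 to 19 CPM against 11.2 to 62.2 CPM.

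Fibroblast genes moved over the same libraries. Their summed level was 76.7, 1168 and 5948 CPM on days 8, 10 and 12 from TC1 cells and 57.1, 3128 and 8210 CPM from mTBLCs, against 750 to 1488 CPM in mPSCs. Of the 15, 1 rose and 3 fell over days 8 to 12 against mPSCs, with Col3a1 reaching 2656 CPM while Prrx1 stayed between 1.77 and 8.87 CPM, a log2 change of -3.15 (edgeR adjusted p = 0.0031). Col1a1 (log2 change 1.52, edgeR adjusted p = 0.514) and Col1a2 (1.11, edgeR adjusted p = 0.558) did not pass. Their part in the Hox levels was not tested.

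Other genes of the Hox pathway are given by the same comparison of days 8 to 12 with mPSCs. Of 9 Meis, Pbx and Pknox cofactors, 4 rose and 0 fell (median log2 change 1.63), with Meis2 at 3.83 (edgeR adjusted p = 0.0165) and Meis1 at 3.08 (edgeR adjusted p = 0.0287). Among Cdx and ParaHox genes 4 of 6 were tested: Cdx2 rose by 4.54 (edgeR adjusted p = 0.0417) and Cdx1 fell by 3.80 on the log2 scale (edgeR adjusted p = 0.0287). Of 7 tested genes flanking the clusters, Evx1, next to Hoxa13, rose by 6.22 (edgeR adjusted p = 0.0153), and Calcoco2 (log2 change -4.69, edgeR adjusted p = 0.0093) and Ttll6 (-2.99, edgeR adjusted p = 0.0303), neighbours of the Hoxb cluster, fell. In the retinoic acid pathway 2 of 15 rose, Cyp26a1, which degrades retinoic acid (5.41, edgeR adjusted p = 0.0111), and Rdh10, which helps to make it (3.47, edgeR adjusted p = 0.0258), and the binding protein Crabp1 fell (-4.31, edgeR adjusted p = 0.0153). One gene each rose among 10 tested trunk and tailbud genes (T), 13 forebrain and midbrain genes (Otx2) and 16 Polycomb and trithorax genes (Bmi1, 2.68, edgeR adjusted p = 0.00538), and none of 6 tested noncoding RNAs of the clusters passed. Among cell type markers, all 6 genes of extraembryonic endoderm rose, as did 2 of 5 heart genes, 3 of 5 tested blood and endothelium genes and 1 of 6 mesoderm genes, while 0 of 5 pluripotency genes passed in either direction.

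The origin of the embryoid bodies made no difference that the test could detect. With day as a block, mTBLC against TC1 origin (n = 4 each) gave 0 of 27 tested members in either direction by edgeR, where 0% of all genes passed in each direction; 1 member (Hoxb8) had an unadjusted p under 0.05 and DESeq2 called 0. The median log2 difference was 0.69 for the members and 0.02 for all genes. On days 10 and 12 alone (n = 2 each) 0 of 30 tested members passed, where 4.73% of all genes were higher from mTBLCs and 5.48% lower, and 6 members were higher at an unadjusted p under 0.05. Hoxb2 there had a log2 difference of 0.93 (SE 0.286, edgeR adjusted p = 0.0572) and Hoxb8 of 2.44 (SE 0.759, edgeR adjusted p = 0.0596).

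By day, no member had a slope past the test either. Over the 8 embryoid bodies, with origin as a term, edgeR called 0 of 27 tested members in either direction, where 0% of all genes passed; 2 were lower with day and 0 higher at an unadjusted p under 0.05, where 15.4% of all genes were in either direction, and DESeq2 called 1 rising and 1 falling. Without the libraries labelled day 3, an alternative added after seeing the data, 9 of 27 were higher and 0 lower at an unadjusted p under 0.05, where 30.7% of all genes were in either direction, and again 0 passed the adjusted test. The median slope was then 0.54 per day on the log2 scale, with 25 positive and 2 negative, against 0.08 with all days. With all days, Hoxb9 changed by -0.66 per day on the log2 scale (SE 0.152, edgeR adjusted p = 0.109) and Hoxc13 by -0.26 (SE 0.100, edgeR adjusted p = 0.280). Without the libraries labelled day 3, Hoxc13 changed by -0.21 (SE 0.270, edgeR adjusted p = 0.613) and Hoxb9 was not tested.

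Set against the 96 libraries outside the embryoid bodies, 0 of the 39 members were higher in all 6 embryoid bodies of days 8 to 12 than in every other library, where 0.0321% of all genes (8 genes) were. With days 10 and 12 alone the count was again 0, where 1.84% of all genes (458) were. Ranked among all libraries, Hoxb3 stood at places 7 and 2 from TC1 cells and 1 and 3 from mTBLCs on days 10 and 12, and Hoxb2 at places 8 and 4 and 2 and 1. Hoxd1 stood at places 3, 46, 1 and 2, and Hoxb9 at places 103, 90, 101 and the last place. Outside the embryoid bodies, the library with the highest level was for most members a ZHBTc4 library with doxycycline.

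Established mTBLCs had more Hox transcript than the stem cells, and 6 of the 10 members that rose were posterior, as were 16 of the 38 tested. Hoxa10, a gene of the lower trunk, was 8.93, 10.0, 13.6 and 13.3 CPM at passages 6, 8, 14 and 19, against 0.824, 1.55 and 0.599 CPM in mPSCs. Hoxd13, which patterns digits and the end of the axis, was 15.7, 25.9, 30.9 and 31.3 CPM against 3.85, 4.88 and 0.375 CPM. Hoxc13, known for hair and nail, was 12.1, 15.4, 12.2 and 15.1 CPM against 4.26, 3.65 and 2.66 CPM. For these genes every established library lay above every mPSC library. Hoxa13 was 1.36, 2.84, 4.43 and 3.91 CPM against 0.550, 0 and 0 CPM, and Hoxd10 was 2.82, 4.54, 7.85 and 6.48 CPM against 0, 1.19 and 0.225 CPM, again without overlap.

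Of 38 tested members (Hoxb1 was too low), 10 rose, where 9.42% of all genes did, and 0 fell, where 9.72% of all genes did. At an unadjusted p under 0.05, 17 were higher and 1 was lower, where 34.9% of all genes were in either direction, and DESeq2 called 14 higher and 0 lower, and 2371 and 2570 of 17525 genes. The largest log2 changes were those of Hoxa13 (4.75, SE 1.36, edgeR adjusted p = 0.0318), Hoxa10 (3.31, SE 0.485, edgeR adjusted p = 0.00162), Hoxd10 (3.13, SE 0.806, edgeR adjusted p = 0.0204) and Hoxd13 (2.93, SE 0.666, edgeR adjusted p = 0.0118). Hoxc13 rose by 1.80 (SE 0.278, edgeR adjusted p = 0.00197), and the others were Hoxa5, Hoxa7, Hoxc4, Hoxc6 and Hoxd9. By position 1 of 11 tested anterior, 3 of 11 central and 6 of 16 posterior members rose. By cluster 4 of 11 tested Hoxa, 0 of 9 Hoxb, 3 of 9 Hoxc and 3 of 9 Hoxd members rose. The median log2 change was 1.41 for the members and 0.03 for all genes. Of the mPSC libraries only replicate 2 was deposited in the same set of counts as the established mTBLCs. The count depended on single libraries: it was 20 without mPSC replicate 2, 5 without mPSC replicate 3, and 6, 4 and 4 without established passages 8, 14 and 19. Over all genes 2158, 1685, 1147, 892 and 870 rose in these fits, against 1650 with all libraries. With the 3 libraries of 0 h from the time courses in place of the established ones, an alternative added after seeing the data, 3 members rose (Hoxc4, Hoxc12 and Hoxc13), where 6.75% of all genes did, and 0 fell, where 6.98% of all genes did. The median log2 change of the 37 tested members was then 0.02, with 19 positive and 18 negative, and that of all genes 0.01.

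The Hoxb cluster supplied none of the calls. Hoxb9 was 21.3, 20.1, 19.1 and 22.1 CPM in established mTBLCs, against 7.28, 19.9 and 3.26 CPM in mPSCs, so that the groups overlapped at 19.1 and 19.9 CPM (log2 change 0.80, SE 0.502, edgeR adjusted p = 0.276). In early mTBLCs it was higher, at 31.0, 34.3 and 31.9 CPM at passages 1, 2 and 4. Hoxd13 in the same early libraries was 10.5, 8.22 and 5.15 CPM, below every established library. Hoxb13 was 1.06, 1.40, 0.526 and 1.21 CPM in established mTBLCs (log2 change -1.87, SE 0.855, edgeR adjusted p = 0.140), and Hoxb1 was at 0 in all 4. Hoxd1 was 1.23, 2.27, 1.05 and 1.26 CPM (edgeR adjusted p = 0.775).

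Prrx1, a mesenchymal transcription factor, rose in the same comparison. It was 149, 163, 263 and 226 CPM in established mTBLCs against 40.3 to 62.2 CPM in mPSCs (log2 change 1.90, edgeR adjusted p = 0.00309). Of the 15 fibroblast genes 4 rose and 0 fell, while Col1a1 (0.44, edgeR adjusted p = 0.601), Col1a2 (0.46, edgeR adjusted p = 0.550) and Col3a1 (1.28, edgeR adjusted p = 0.0552) did not pass. Their summed level was 1480 to 2400 CPM against 750 to 1488 CPM. Of the 9 cofactors 3 rose, among them Meis2 by 2.33 and Meis1 by 1.52 on the log2 scale, and of 8 flanking genes Evx2, beside Hoxd13, rose by 4.94 and Evx1 by 3.99. In the retinoic acid pathway 1 of 15 rose (Rxra) and 2 fell, among them Crabp1, and of 11 trunk and tailbud genes 3 rose (Uncx, Wnt5a and Gdf11). Of 16 Polycomb and trithorax genes 3 rose, led by Bmi1 with a log2 change of 2.57 (edgeR adjusted p = 0.000842), and 0 of 7 cluster noncoding RNAs passed.

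**Figure D3:**
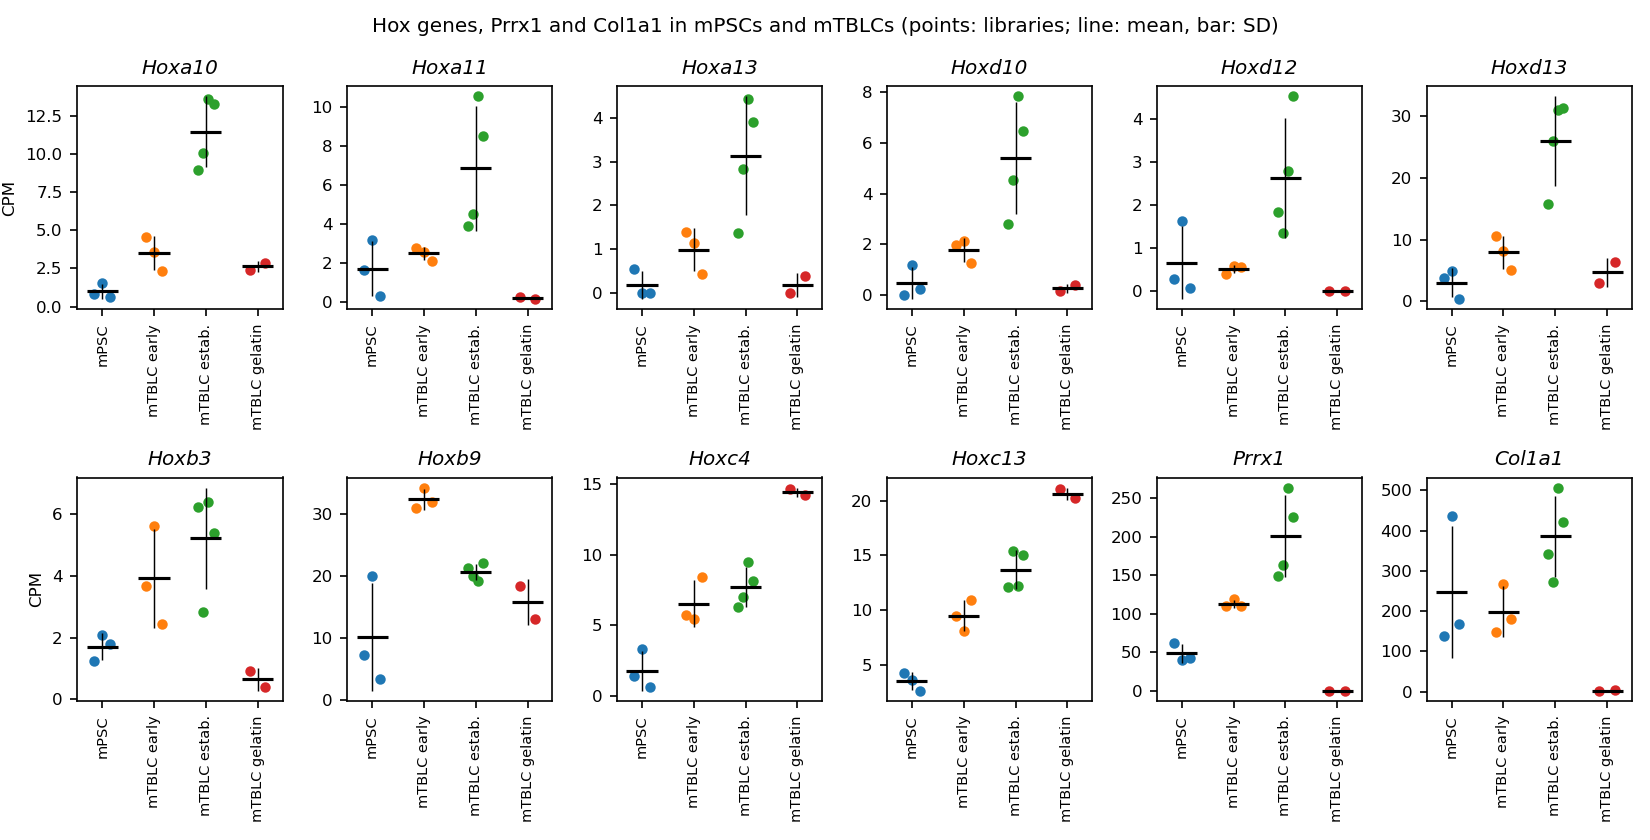
Level in CPM (vertical axes, scaled for each gene) of 10 Hox genes and of Prrx1 and Col1a1 in mPSCs (3 libraries), early (3), established (4) and gelatin (2) mTBLCs; points are libraries, the horizontal line is the mean and the bar the SD. Hoxa10, Hoxa11, Hoxd10 and Hoxd12 are highest in established mTBLCs, and Hoxa11, Hoxd10 and Hoxd12 lie near 0 on gelatin together with Prrx1 and Col1a1, while Hoxc4 and Hoxc13 are highest on gelatin.

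On gelatin, where fibroblast genes were almost absent, 8 members fell, 2 of Hoxa, 3 of Hoxb, 1 of Hoxc and 2 of Hoxd. This comparison uses the same established libraries as the one above, so the values are set side by side and not counted as separate evidence. Gelatin and established libraries were deposited as separate sets of counts, so the surface and the set cannot be told apart. Hoxa11, a gene of limb and uterus, was 0.217 and 0.145 CPM on gelatin at passages 7 and 8, against 3.87, 4.50, 10.6 and 8.50 CPM in established mTBLCs. Hoxb6 was 0.217 and 0 CPM against 3.83, 1.57, 4.87 and 3.10 CPM, and Hoxa10 was 2.39 and 2.88 CPM, below all 4 established values. Hoxb5 was at 0 in both gelatin libraries, against 0.968, 0.874, 1.67 and 2.16 CPM, which is at least 32.4-fold lower (floor of 3 counts over the group). Hoxd12 was also at 0, against 1.85, 1.35, 2.81 and 4.54 CPM, at least 60.3-fold lower.

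By edgeR 8 of 38 tested members fell on gelatin, where 8.56% of all genes did, and 0 rose, where 7.53% of all genes did; 16 were lower and 2 higher at an unadjusted p under 0.05, where 33.7% of all genes were in either direction, and DESeq2 called 13 lower and 1 higher, and 2529 and 1900 of 17525 genes. Hoxa11 changed by -5.01 on the log2 scale (SE 0.986, edgeR adjusted p = 0.00768), Hoxb6 by -4.82 (SE 1.27, edgeR adjusted p = 0.0259), Hoxd10 by -4.06 (SE 0.995, edgeR adjusted p = 0.0197) and Hoxb3 by -2.81 (SE 0.799, edgeR adjusted p = 0.0345). Hoxb5 (edgeR adjusted p = 0.00729), Hoxd12 (edgeR adjusted p = 0.0233), Hoxa10 (-1.89, edgeR adjusted p = 0.0287) and Hoxc6 (-1.56, edgeR adjusted p = 0.0486) completed the list. The median log2 change was -1.44 for the members and -0.02 for all genes. Leaving out established passages 6, 8, 14 and 19 gave counts of 4, 5, 2 and 2. Over all genes 1140, 971, 896 and 782 fell in these fits, against 1500 with all libraries. Only 1 gelatin library remained when the other was left out, and few or no members were then called.

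Several abundant members did not pass. Hoxc13 was 21 and 20.2 CPM on gelatin, above all established values (log2 change 0.82, SE 0.282, edgeR adjusted p = 0.0651), and Hoxc4, an anterior gene of the neck, was 14.6 and 14.2 CPM, also above all of them (1.13, SE 0.495, edgeR adjusted p = 0.132). Hoxb9 was 18.4 and 13.1 CPM, below all established values (-0.16, SE 0.557, edgeR adjusted p = 0.866). Hoxd13 was 3.04 and 6.37 CPM (-2.23, SE 0.742, edgeR adjusted p = 0.0592), below all established values, and Hoxa13 was 0 and 0.388 CPM (-3.68, SE 1.35, edgeR adjusted p = 0.0796). The median log2 change was 0.26 over the Hoxc members and -2.68 over the Hoxd members. Summed Hoxc was 52.5 and 48.0 CPM on gelatin and 41.1 to 52.3 CPM in established mTBLCs.

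In those gelatin libraries 12 of 15 fibroblast genes fell (median log2 change -6.92). Prrx1 had 2 counts over both, a pooled level 6903-fold lower than in established mTBLCs (exact 95% interval 1911 to 57007), Col3a1 was at 0, and Col1a1 was 2.60 and 2.84 CPM (log2 change -6.92, edgeR adjusted p = 0.000787). The fibroblast sum was 71.5 and 84.8 CPM. Their part in the Hox calls was not tested. Of the 6 Cdx and ParaHox genes, Cdx1 rose by 3.83 on the log2 scale (edgeR adjusted p = 0.00907). Of 11 tested trunk and tailbud genes, the Wnt target Sp5 (3.24) and Wnt3a (1.87) rose, and Wnt5a (-6.85) and Gdf11 (-2.0) fell.

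Cells in 2MYCP medium had more transcript of several Hoxb and Hoxc genes than cells in 2MYC medium. At passages 1, 2, 4 and 6, Hoxc8 was 3.57, 7.07, 4.18 and 6.56 CPM in 2MYCP and 1.18, 1.69, 0.877 and 0.319 CPM in 2MYC. Hoxc6, of the lower neck and upper thorax, was 6.35, 13, 8.91 and 9.46 CPM against 2.35, 4.09, 1.63 and 1.28 CPM. Hoxb8 was 5.16, 5.13, 2.74 and 4.66 CPM against 1.31, 1.13, 1.63 and 0.319 CPM, and Hoxc9 was 1.93, 2.68, 1.72 and 2.95 CPM against 0.523, 0.565, 0.251 and 0.639 CPM. For each of these genes all 2MYCP values lay above all 2MYC values.

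With passage as a block (n = 4 each), 7 of 33 tested members were higher in 2MYCP by edgeR, where 6.60% of all genes were, and 0 lower, where 6.97% of all genes were; 14 were higher and 0 lower at an unadjusted p under 0.05, where 30.9% of all genes were in either direction, and DESeq2 called 12 higher and 0 lower, and 1528 and 1531 of 14458 genes. The log2 differences were 2.34 for Hoxc8 (SE 0.507, edgeR adjusted p = 0.0235), 2.19 for Hoxc9 (SE 0.517, edgeR adjusted p = 0.0295), 2.01 for Hoxc6 (SE 0.352, edgeR adjusted p = 0.0127) and 1.96 for Hoxb8 (SE 0.540, edgeR adjusted p = 0.0473). Hoxb3, Hoxb9 and Hoxc4 also passed, and no Hoxa or Hoxd member did. The median was 1.12 for the members and 0.01 for all genes. Depth differed between the media, at 6.26 to 7.98 M counts in 2MYC and 20.2 to 42.3 M in 2MYCP. Of 14 tested fibroblast genes 6 were higher in 2MYCP, with Prrx1 at 0.98 (edgeR adjusted p = 0.0319). Leaving out passage 1, 2 or 4 gave 1, 0 or 2 calls, where 220, 81 or 374 of all genes were higher, against 954 with all passages. The 2 media were deposited as separate sets of counts.

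Over the time courses 17 of 36, 12 of 35 and 14 of 32 tested members fell in S/L, SFH and NTF medium. Of all genes, 19.2%, 19.6% and 15.3% fell. Most tested members of the Hoxc cluster were among the members that fell in each. The sample titles do not name the cells put into these media, but the counts of all 3 courses were deposited as differentiation of mTBLCs. The 3 libraries of 0 h had summed Hox levels of 96.5, 125 and 105 CPM in S/L, SFH and NTF medium. Hoxb9 was 18.4, 2.91 and 3.41 CPM at 0, 48 and 92 h in S/L medium, 24.9, 4.32 and 1.95 CPM at the same times in SFH medium, and 16.7, 2.07 and 1.23 CPM at 0, 48 and 96 h in NTF medium. Hoxc4 was 9.02, 2.00 and 0.677 CPM in S/L, 8.95, 0.551 and 0.611 CPM in SFH, and 12.6, 1.81 and 0.491 CPM in NTF medium at those times. Hoxc12 was 3.47, 0.410 and 0 CPM in S/L, 4.37, 0.184 and 0 CPM in SFH, and 3.46, 0.0584 and 0 CPM in NTF medium. Each of these genes was highest at the start among the times named. The late S/L libraries were uneven. Their summed Hoxc level was 8.08 CPM at 48 h, and 5.08, 9.93, 3.14, 8.65, 7.44 and 4.40 CPM at 68, 72, 76, 80, 88 and 92 h. For this cluster the library of 92 h was thus a low one, and the values do not show a steady decline after 48 h. Hoxb9 went the other way, with 1.29 CPM at 88 h and 3.41 CPM at 92 h. The cause was not tested.

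In S/L medium a spline over time compared 92 h with 0 h (edgeR). Of 36 tested members 17 fell, where 19.2% of all genes did, and 1 rose, where 21.2% of all genes did. All 9 Hoxc members fell, with Hoxc12 at -5.38 (SE 0.721, edgeR adjusted p = 3.4e-06), Hoxc8 at -4.79 (SE 0.921, edgeR adjusted p = 0.000242) and Hoxc13 at -2.41 (SE 0.333, edgeR adjusted p = 5.24e-06) on the log2 scale. Hoxc11 had 2 counts in the last 3 libraries and 72 in the first 3, a pooled level 31.8-fold lower (exact 95% interval 8.48 to 267), and Hoxb5 was at 0 in the last 3, at least 11.5-fold lower. Hoxb9 fell by 2.76 (SE 0.399, edgeR adjusted p = 9.03e-06). Hoxa11 was the member that rose, by 2.51 (SE 0.625, edgeR adjusted p = 0.00269), from 0.228 CPM at 0 h to 1.23 at 48 h and 0.635 CPM at 92 h. At 88 h Hoxa11 was 2.08 CPM. Its antisense neighbour Hoxa11os rose as well (3.67, edgeR adjusted p = 0.000144), and without strand the reads of the 2 genes cannot be told apart.

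In SFH medium 12 of 35 tested members fell, where 19.6% of all genes did, and 1 rose, where 21.5% of all genes did. Among 8 tested Hoxc members 6 fell, with Hoxc10 at -5.02 (SE 1.38, edgeR adjusted p = 0.00388) and Hoxc4 at -3.85 (SE 0.973, edgeR adjusted p = 0.00174). Hoxb8 changed by -4.62 (SE 1.55, edgeR adjusted p = 0.0164), Hoxb9 by -4.40 (SE 0.681, edgeR adjusted p = 3.24e-06), and Hoxb5 was at 0 in the last 3 libraries, at least 7.0-fold lower. Hoxd13 was 5.67, 4.23 and 0.244 CPM at 0, 48 and 92 h and fell by 3.09 (SE 0.533, edgeR adjusted p = 1.67e-05). Hoxb1 rose (edgeR adjusted p = 0.00491), on 17 counts in the last 3 libraries against 1 in the first 3, a ratio of 17 (exact 95% interval 2.66 to 710); the call was absent when the last 3 were tested directly against the first 3.

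In NTF medium 14 of 32 tested members fell at 96 h against 0 h, where 15.3% of all genes did, and 0 rose by edgeR or DESeq2, where 16.9% of all genes rose by edgeR, with 0 higher at an unadjusted p under 0.05. All 8 tested Hoxc members fell, with Hoxc5 at -7.32 (SE 1.41, edgeR adjusted p = 0.00186) and Hoxc4 at -4.79 (SE 0.639, edgeR adjusted p = 0.000142). Hoxa3, of the neck and throat, changed by -5.50 (SE 1.53, edgeR adjusted p = 0.0153). Hoxc12 was at 0 in the last 2 libraries, at least 76.5-fold lower than in the first 2, and Hoxb6 at least 5.15-fold lower. Hoxc13 was 22.4, 12.6, 10.3, 6.47, 3.5, 4.64 and 4.48 CPM at 0, 4, 10, 24, 48, 72 and 96 h, so most of its fall (-1.62, SE 0.478, edgeR adjusted p = 0.0199) lay before 48 h.

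The 3 courses have separate libraries throughout, including those of 0 h. Among 32 members tested in all of them, 7 fell in all 3, where 6.71% of all genes (1049 of 15642) did: Hoxb9, Hoxc4, Hoxc6, Hoxc8, Hoxc10, Hoxc12 and Hoxc13. Of the 39, 5 fell in 2 courses (Hoxa9, Hoxb5, Hoxc5, Hoxc9 and Hoxd13), 12 in 1 and 15 in none. The median log2 change of the tested members was -1.68, -2.64 and -3.20 in S/L, SFH and NTF medium (-3.03 in NTF with members at 0 set to their bounds), with medians within 0.01 of 0 for all genes.

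**Figure D4:**
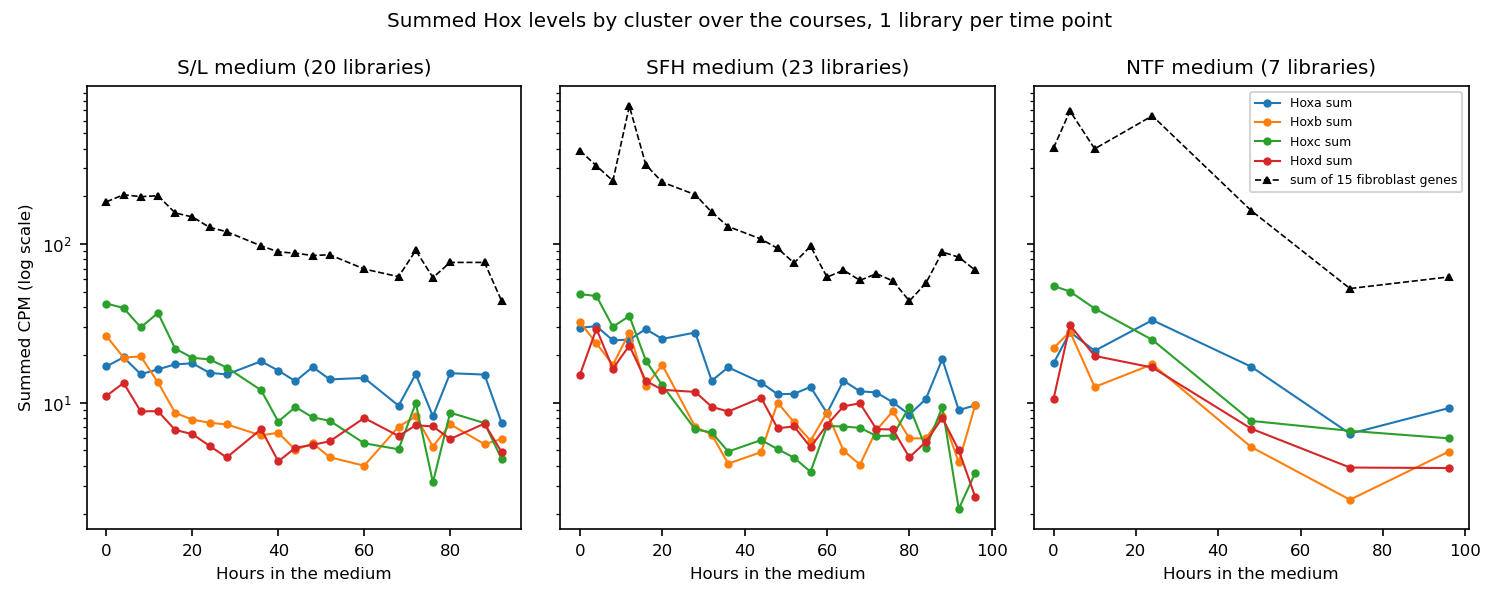
Summed CPM (log vertical axis) of each Hox cluster and of 15 fibroblast genes (dashed) against hours in S/L, SFH and NTF medium, with 1 library per time point. The Hoxc line starts highest of the clusters in each medium and lies below the Hoxa line at the last time in all 3, and the fibroblast line declines over the same hours.

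The fibroblast genes fell in the same courses: 11 of 14 tested in S/L, 12 of 14 in SFH and 11 of 14 in NTF medium. Their sum went from 185 to 205 CPM in the first 3 libraries to 43.7 to 76.7 CPM in the last 3 of the S/L course, from 251 to 388 CPM to 68.5 to 89.2 CPM in the SFH course, and from 404 and 692 CPM to 52.5 and 62.1 CPM between the first 2 and last 2 of the NTF course. Prrx1 changed by -4.92, -5.69 and -4.76 on the log2 scale. Their part in the Hox declines was not tested. Other regulators passed in all 3 courses: Cdx1 fell by 5.28, 5.96 and 5.69 on the log2 scale, Cyp26a1 rose by 2.86, 5.38 and 4.83, and Pbx3 rose by 1.95, 1.61 and 2.91. Of 16 Polycomb and trithorax genes 3, 1 and 1 rose and 6, 11 and 5 fell in S/L, SFH and NTF medium. The noncoding RNA Halr1 of the Hoxa cluster fell by 4.43 in SFH (edgeR adjusted p = 3.11e-06) and by 4.62 in NTF medium (edgeR adjusted p = 0.000407).

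The highest Hox levels of all libraries were in the cells titled ZHBTc4. Their summed level was 83.3 CPM in S/L medium, 173 CPM in S/L with doxycycline at passage 1 and 204 CPM in 2MYCP at passage 12. With doxycycline in 2MYCP it was 153, 271, 432, 524 and 273 CPM at passages 1, 2, 3, 4 and 12. Pou5f1 was 620 CPM in S/L medium, 155 CPM in S/L with doxycycline and 16.7, 5.31, 0.192, 0.716 and 1.07 CPM at those 5 passages. In the library labelled 2MYCP without doxycycline it was 86.6 CPM, below the S/L library with doxycycline. These libraries also differ in medium and passage, and the reason for the order was not tested. Each passage is a single library, and no test was made.

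Single members took different courses over these passages. Hoxb9 was 30.2, 50.2, 62.4, 85.2 and 45.2 CPM at passages 1, 2, 3, 4 and 12 with doxycycline in 2MYCP. Hoxc6 was 5.90, 18.4, 36.8, 48.9 and 32.7 CPM at these passages. Hoxd13 was 8.29, 19, 27.9, 37.9 and 1.81 CPM, so it was lower at passage 12 than at passage 1, unlike Hoxb9 and Hoxc6. Hoxc13 was 13.5, 8.41, 5.71, 5.21 and 6.80 CPM, highest at passage 1, where the sum was lowest. Prrx1 was 70.8, 346, 232, 365 and 117 CPM in these libraries, and its part in the Hox levels was not tested. In 2MYC with doxycycline the sums were 452 CPM at passage 2 and 99.8 CPM at passage 3; the former came from a library of 1.04 M counts with 470 Hox counts, 151 of them Hoxc8 (145 CPM), and Hoxb4 at 112 CPM.

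**Figure D5:**
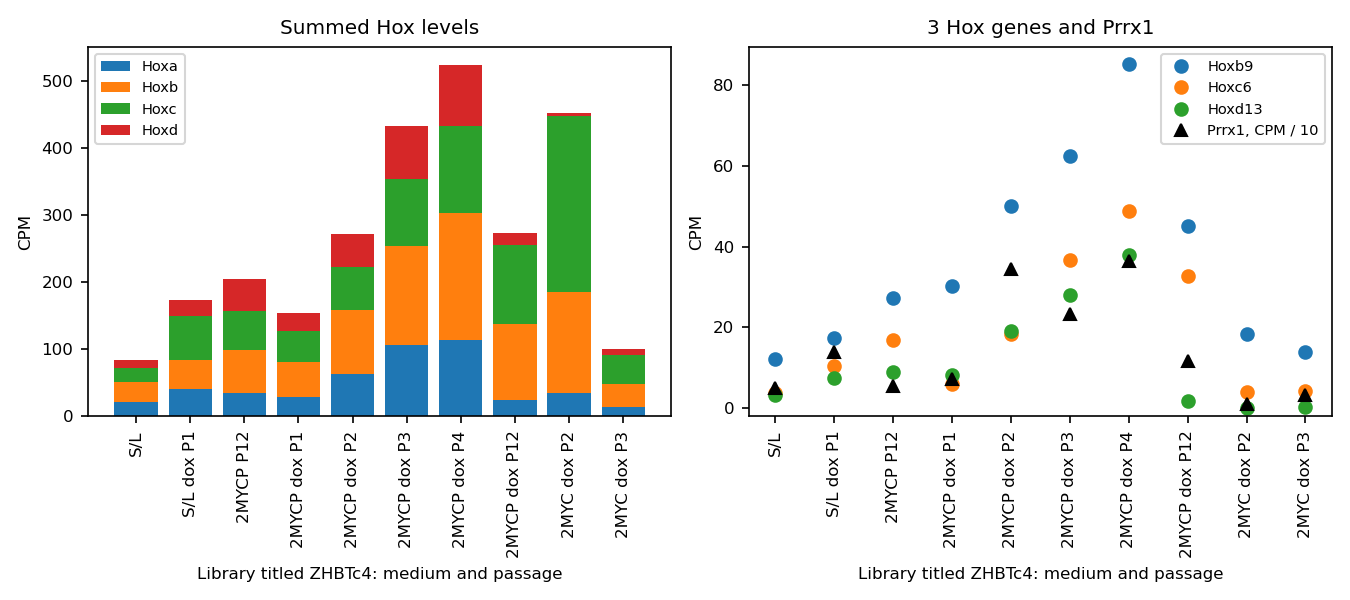
Left, summed CPM (vertical axis, stacked by cluster) in each of the 10 libraries titled ZHBTc4; right, CPM of Hoxb9, Hoxc6 and Hoxd13 and of Prrx1 divided by 10. The 2MYCP libraries with doxycycline go from 153 CPM at passage 1 to 524 CPM at passage 4, with 273 CPM at passage 12, where Hoxd13 is low.

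The remaining groups are described by level only. The Ctnnb1 knockout had a summed level of 243 CPM, with Hoxd13 at 21.9 CPM and Hoxc13 at 16.7 CPM, and a fibroblast sum of 1671 CPM. Cells with ICG001 had 150 CPM and the highest Hoxc4 of all libraries, 22.9 CPM, beside a fibroblast sum of 251 CPM. The 2MYP libraries had 84.0 and 92.0 CPM, of which Hoxc13 made 16.9 and 12.6 CPM and Hoxc4 13.6 and 10.9 CPM, so at passage 7 both genes were above all established mTBLC levels, beside fibroblast sums of 294 and 1136 CPM. The blastomere lines had 103 to 127 CPM with Hoxc13 at 13.3 to 16.9 CPM, and their fibroblast sums were 3946 to 5798 CPM.

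The blastocyst sample had 31.0 CPM in all, with Hoxd9 at 5.98, Hoxd4 at 5.01, Hoxd8 at 3.48 and Hoxb13 at 3.20 CPM, and it held 0.139 CPM of Col1a1 and no count of Prrx1. In this sample Hoxc13 was 0.417 CPM, below its level in every mPSC library. The blastoids had 58.4 and 107 CPM, and Hoxb1 was 0.166 and 3.36 CPM in them, the latter higher than in any library outside the embryoid bodies. TELC cells had 80.5 to 134 CPM, PreLC cells 40.5 to 105 CPM and the EB-TSC library 45.5 CPM.

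The paralogs of group 13 showed no common level across the series. With the libraries titled ZHBTc4 left out, Hoxc13 was present in every culture in 2MYCP, 2MYC or 2MYP medium from TC1-GFP cells, between 2.74 and 21 CPM. Hoxd13 ranged there from 3.04 to 31.3 CPM, Hoxb13 from 0 to 4.47 CPM and Hoxa13 from 0 to 4.43 CPM. In embryoid bodies of days 3, 8, 10 and 12, Hoxd13 was 3.55, 0.525, 1.05 and 1.24 CPM from TC1 cells and 1.14, 0.984, 0.758 and 1.49 CPM from mTBLCs, and Hoxc13 was 4.15, 1.52, 3.08 and 2.23 CPM against 16, 3.80, 4.42 and 0.687 CPM. In the comparison of days 8 to 12 with mPSCs neither passed the test.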

How the data were processed

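The deposited files were tables of raw counts per gene, which the authors made with Trimmomatic, HISAT2 and featureCounts on mm10, per the submitters' processing notes. Versions, annotation and strand setting are not given in the sources used here; the libraries were made with the VAHTS Universal V8 kit, per the labels' protocols. From these, 26 gene names turned into dates were left out, and CPM was computed from each library's total. Each comparison was fitted over all genes in edgeR 4.0.16 (R 4.3.3) with filterByExpr, TMM scaling and the quasi-likelihood F test, and p-values were adjusted by Benjamini-Hochberg over all genes tested (threshold 0.05). The SE is the absolute log2 change divided by the square root of F. The fits of later embryoid bodies against mPSCs also held the libraries labelled day 3, as a group of their own. Established mTBLCs, mPSCs and gelatin cultures shared a fit that also held the 2MYP, Ctnnb1 knockout and ICG001 libraries, each as its own group. DESeq2 1.42.0 was the alternative test. Time courses used a natural spline with 3 degrees of freedom (2 in NTF medium). The fit was also tested on simulated data.

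Genes named with values were those past the test with the largest changes, up to 3 per cluster and direction in the embryoid body comparisons and up to 4 per direction elsewhere, the 2 highest per kilobase in each cluster in the later embryoid bodies, and the paralogs of groups 1 and 13; further members named for their level were chosen after their values were seen. Single values of 1 member and of some listed genes are not reported here. The members and gene lists were chosen with earlier results of these data known. Day labels paired the embryoid bodies of both origins. The deviations of each pair from their group means correlated at 0.106, 0.318, 0.550 and 0.608 for days 3, 8, 10 and 12. The day 3 value lies below the 0.158 of passage 2 in the 2 media, so it gives little ground for pairing by day there. Low counts were even in 69.3% to 92.7% of cases across libraries (counts up to 20), so counts divided by 2 were an alternative. Other alternatives were other size factors, other filters, other splines, leaving out each library in turn and fits with no replicate block. Depth of 1.04 to 57.0 M counts sets the precision; intervals and floors (3 counts) cover counting error only.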

Additional observations from a re-analysis of the deposited data

Results flagged for a closer look

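Of 96 sets of values in groups of 4 to 10 libraries, 8 had a highest library far from the others, and chance gives about 1 in 20 groups. In 2MYC cells, passage 2 stood apart with a Hoxa sum of 29.6 CPM (next highest 20.1), Hoxa11 at 5.65 CPM (2.84), Hoxa13 at 2.40 CPM (1.05) and Hoxb6 at 3.39 CPM (1.28). Its fibroblast sum of 970 CPM was also the highest of the 2MYC libraries; its part was not tested. Passage 3 stood apart for Hoxc11, at 0.851 CPM (0.251), and passage 6 for Hoxc12, at 5.11 CPM (2.00). Hoxb1 was 0.143 CPM at passage 2 of ZHBTc4 in 2MYCP with doxycycline and 0 in the other 4. Hoxc11 was 0.253 CPM in the day 10 embryoid bodies from mTBLCs and 0 in the other 5 of days 8 to 12.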

How the results depend on the processing

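No named gene that passed its test changed direction under the settings run, but the median of the later embryoid bodies, 0.13, lay between -0.33 (without mPSC replicate 3) and 1.04 (without mPSC replicate 2) on the log2 scale. For the later embryoid bodies against mPSCs, the count that rose went from 0 to 3 with DESeq2 and 2 with days 10 and 12, and from 0 to 3 over leaving out each library; the count that fell went from 2 to 1 with the stricter filter, with halved counts and with days 10 and 12, and ranged from 0 to 2 over libraries left out. By day, DESeq2 gave 1 rising and 1 falling member in place of 0. For established mTBLCs the count that rose went from 10 to 3 with the 0 h course libraries and ranged from 4 to 20 over libraries left out, and the count that fell from 0 to 1. On gelatin DESeq2 gave 1 that rose and 13 that fell, and libraries left out gave 0 to 5 that fell in place of 8. For 2MYCP against 2MYC, DESeq2 gave 12 in place of 7, and leaving out passages 1, 2, 4 or 6 gave 1, 0, 2 or 9. The S/L course had 2 that rose with a spline of 2 degrees of freedom. In SFH medium the rise of Hoxb1 was lost (0) with the stricter filter, with halved counts and in the last 3 against first 3 libraries, and 20 in place of 12 fell with the 2-degree spline. In NTF medium 1 rose with no filter, and 5 in place of 14 fell with the stricter filter. The cause of these changes was not tested, apart from the fewer libraries where one was left out.

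Without the replicate block, 2MYCP against 2MYC gave 8 that rose and 0 that fell, and the origin of the embryoid bodies gave 0 in both directions, as with the pairing. The passages shared only a number, with correlations of deviations of 0.0727, 0.158, 0.00605 and 0.0571. Most members lay at a few CPM, where counting error is largest relative to the level.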
